A study of Mus musculus with 6 samples.

Results

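The *Klrb1* genes lie in the natural killer (NK) gene complex of mouse chromosome 6 and encode C-type lectin-like receptors of NK cells. The 4 members described were *Klrb1a*, *Klrb1b*, *Klrb1c* and *Klrb1f*, together with every ATAC-seq peak listed between 128.3 and 129.4 Mb of chromosome 6 (GRCm38). The members were chosen by the peak lists themselves: *Klrb1a* and *Klrb1c* had a promoter peak in proliferating cultures only, and that contrast is therefore a description with no test. The 4 genes stand among 21951 protein-coding genes of the annotation (GENCODE M21). Overlapping peaks of the 6 libraries merged into 85 regions in the window and 120143 in the genome.

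All 6 libraries came from adult (10 weeks) neural stem cell cultures of the subependymal zone (SEZ) of mice that lack the *Sox2* enhancer *Srr2* on both alleles (*Srr2* del/del, made with CRISPR-Cas9 and kept on C57BL/6J). The paper describes strains of independent founders with the same deletion. The sample labels do not give the strain of a library. The 3 PROLIF libraries (replicates 1, 2 and 4) were from dissociated neurosphere cells plated on Matrigel with the mitogen bFGF, at 2 days in vitro (DIV). The 3 DIFF libraries (replicates 1, 2 and 4) were from cells 1 day after mitogens were withdrawn and serum was added (2+1 DIV). The sample labels and the methods give 2 DIV for PROLIF, whereas the series' design text gives 3 DIV, and the treatment labels speak of RNA although the libraries are ATAC-seq. The deletion was shared by both groups, so the comparison is of the culture state within mutant cells. Wild-type libraries were not analysed here, and each library was made from 50000 cells of a bulk culture.

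Receptors of this family either activate or inhibit the cell that carries them. *Klrb1c* encodes the NK1.1 antigen that marks NK cells of C57BL/6 mice, and its product, like those of *Klrb1a* and *Klrb1f*, is an activating receptor. *Klrb1b* encodes an inhibitory receptor whose ligand is the product of *Clec2d*. The *Clec2* genes are interspersed with the receptor genes, so that receptors and ligands are inherited together. In ATAC-seq a transposase cuts open chromatin, and a peak marks a stretch cut more often than its surroundings. It says nothing about whether a gene is transcribed. In bulk cultures fewer cells with an open site and less opening per cell cannot be told apart.

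The peak summits of the members are shown first, as read from the GRCm38 reference in the direction of transcription. The *Klrb1a* and *Klrb1c* stretches are the 201 bases around the summit of the best-ranked peak, chr6:128622860-128623060 and chr6:128788527-128788727, both on the minus strand. Capitals mark the 23 bases of each that were substituted or unaligned when the pair was aligned to each other.
Klrb1a: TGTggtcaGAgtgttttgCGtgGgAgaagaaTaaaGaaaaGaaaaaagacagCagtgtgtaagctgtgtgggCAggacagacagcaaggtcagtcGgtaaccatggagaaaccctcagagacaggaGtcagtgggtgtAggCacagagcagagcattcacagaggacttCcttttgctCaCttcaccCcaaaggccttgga
Klrb1c: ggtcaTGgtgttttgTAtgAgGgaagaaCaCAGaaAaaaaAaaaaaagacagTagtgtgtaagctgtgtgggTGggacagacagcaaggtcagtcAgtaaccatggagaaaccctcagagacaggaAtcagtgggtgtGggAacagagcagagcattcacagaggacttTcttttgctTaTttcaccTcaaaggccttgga
The *Klrb1f* stretch, chr6:129049173-129049373 on the plus strand, is shown because this peak was listed in both states. Its capitals mark the E-box letters CAGCTG.
Klrb1f: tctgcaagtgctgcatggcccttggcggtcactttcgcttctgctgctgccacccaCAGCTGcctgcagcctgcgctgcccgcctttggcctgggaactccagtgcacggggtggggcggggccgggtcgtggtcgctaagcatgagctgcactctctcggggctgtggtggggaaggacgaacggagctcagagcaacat
The RefSeq promoter of *Klrb1b*, chr6:128826266-128826565 on the minus strand (GRCm38.p6), is shown as the member with no promoter peak. Capitals mark the longest run of letters it shares with the RefSeq promoter of *Klrb1a*.
Klrb1b: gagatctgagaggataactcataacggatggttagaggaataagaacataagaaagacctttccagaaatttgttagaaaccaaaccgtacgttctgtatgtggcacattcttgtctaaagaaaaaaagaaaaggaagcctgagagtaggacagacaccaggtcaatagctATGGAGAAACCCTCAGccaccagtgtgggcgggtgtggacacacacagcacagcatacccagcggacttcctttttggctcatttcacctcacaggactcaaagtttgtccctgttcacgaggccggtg

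The *Klrb1a* and *Klrb1c* promoter regions were near copies of each other. Over their whole merged length, 502 aligned bases were 89.8% identical, and within the 201-base summit windows 178 of 198 aligned bases were. Among the RefSeq promoters of the members (300 bases each), *Klrb1a* and *Klrb1c* shared 90.8% of 260 aligned bases, whereas the other pairs of the 4 shared between 62.3% (*Klrb1c* and *Klrb1f*) and 71.9% (*Klrb1a* and *Klrb1f*). A read can be placed on a copied sequence only where the copies differ. Of the 32-base words of the *Klrb1a* region 88.4% occurred once in the assembled chromosomes, counting both strands, and of those of the *Klrb1c* region 89.0%. Most words of either region were thus distinct from its copy, and how reads with several equal matches were treated is not given in the sources used here.

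*Klrb1a* (chr6:128609227-128623533, minus strand) had a promoter peak in every PROLIF library and in no DIFF library, a promoter peak being one within 3 kb of an annotated start site. The merged region was 529 bp wide (chr6:128622817-128623345) and overlapped the start sites at 128622872, 128622913 and 128622934. Its fold enrichment over the local background of the same library was 11.7 in PROLIF replicate 1, 7.11 in replicate 2 and 7.54 in replicate 4 (8.78 ± 2.53, SD, n = 3). These enrichments correspond to 46, 27 and 28 reads at the summit. The summit lay 26 bp upstream of a start site in replicates 1 and 4, and 225 bp upstream in replicate 2, which also had the lowest fold. Peak widths were 448, 479 and 333 bp. By −log10 p, the peaks stood at the 77.1, 59.9 and 65.1 percentile of their own lists, so they were ordinary peaks and not weak ones near the threshold. In the DIFF libraries the nearest listed peak was 6396 to 6420 bp from a start site, in a separate region (chr6:128629929-128630668) that all 6 libraries had.

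*Klrb1c* (chr6:128778485-128789215, minus strand) showed the same pattern in a region of 568 bp (chr6:128788518-128789085), which starts 165701 bp further along the chromosome than that of *Klrb1a* and overlapped the start site at 128788641. Its fold enrichment was 9.10 in PROLIF replicate 1, 7.61 in replicate 2 and 10.3 in replicate 4 (8.99 ± 1.33, SD, n = 3), from 40, 29 and 39 reads at the summit. The best library thus differed between both genes, replicate 1 for *Klrb1a* and replicate 4 for *Klrb1c*, and replicate 2 was lowest at both. Widths were 568, 428 and 369 bp and percentiles 70.5, 63.1 and 78.6. The summits lay 29 and 126 bp upstream of the start site in replicates 1 and 2 and 14 bp downstream of it in replicate 4. In the DIFF libraries the nearest listed peak was 9660 to 9710 bp from a start site.

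A promoter peak in all PROLIF and no DIFF library was rare: 50 of 21951 protein-coding genes had one, 0.228%, and 82 genes (0.374%) had the reverse. Since the members were picked for this pattern, their 2 of 4 is not a result. Within the 50 genes, ranked by the lowest PROLIF percentile, *Klrb1c* was first and *Klrb1a* the third. Over the 6 libraries, the genes with percentiles most like those of *Klrb1a* were *Fbln2*, which encodes an extracellular matrix protein (Euclidean distance 3.89 percentile points, with 0 for no peak), *Pla2g3*, a secreted phospholipase (6.01), and *Klrb1c* itself (15.3). For *Klrb1c* they were *Pla2g3* (13.3), *Fbln2* (14.7) and *Klrb1a* (15.3).

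**Figure D1:**
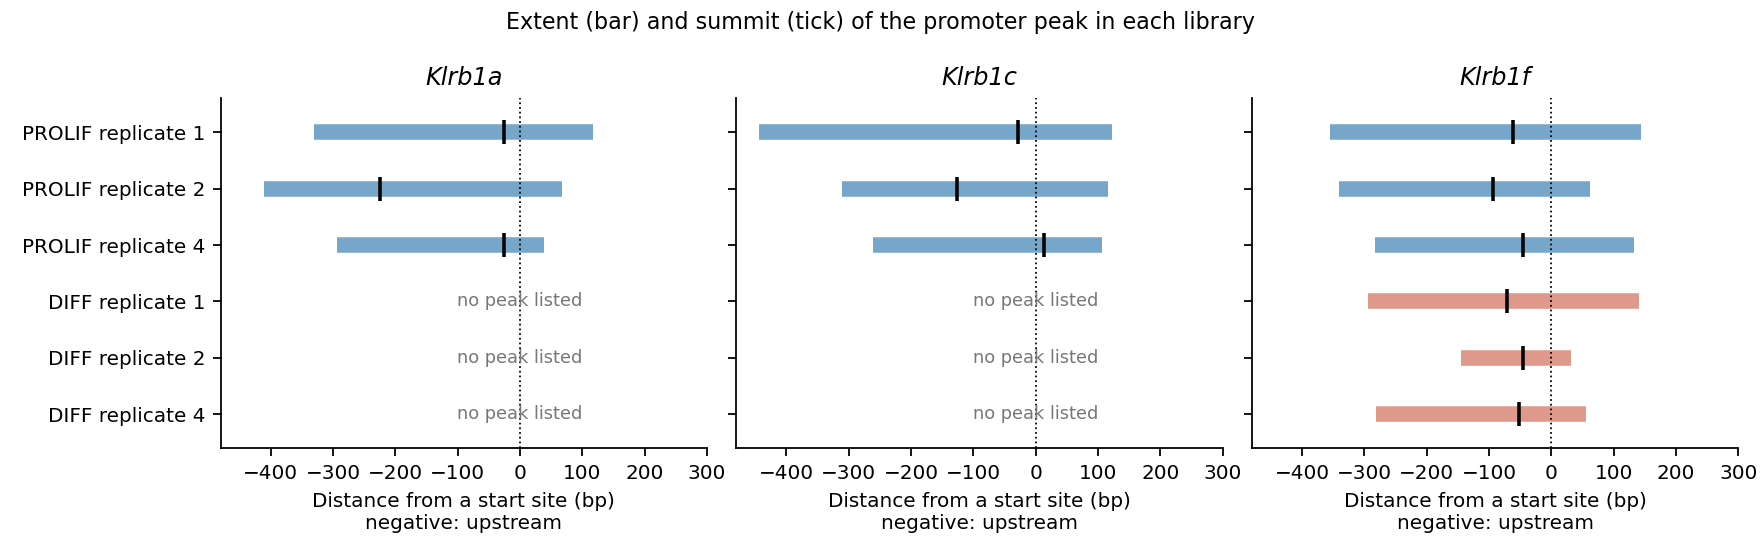
Extent (bar) and summit (black tick) of the promoter peak of *Klrb1a*, *Klrb1c* and *Klrb1f* in each library, as distance in bp from the start site nearest to the summit in PROLIF replicate 1, negative values being upstream. *Klrb1a* and *Klrb1c* have no listed peak in the 3 DIFF libraries, whereas the *Klrb1f* peak is listed in all 6 with summits 45 to 93 bp upstream.

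The lists set a floor on what a missing peak can mean. The background of a library was taken as percentile 1 of the backgrounds of its peaks. It was 2.85 to 2.97 reads in PROLIF and 3.63, 2.96 and 6.01 in DIFF replicates 1, 2 and 4. The fewest summit reads that reach the lowest listed −log10 p at that background were then calculated. They were 10 in each PROLIF library and 11, 10 and 15 in the DIFF ones. A DIFF signal below those reads at *Klrb1a* or *Klrb1c* would not have been listed. Zero listed peaks is thus a signal under the caller's threshold, and closed chromatin was not measured. PROLIF replicate 4, with the shortest list (60006 peaks), still had both peaks, and DIFF replicate 4, with the longest list (88039) and the highest background, had neither.

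*Klrb1f* (chr6:129045901-129057464, plus strand) differed from both: its peak region (chr6:129048979-129049477) was listed in all 6 libraries, as for 64.4% of protein-coding genes. It covered only the start site at 129049334, which belongs to a single annotated transcript. All other start sites of the gene lay between 129045901 and 129045927, upstream of the peak, and had no peak of their own. Start sites of the genes Gm43992 and Gm44000 were also within 3 kb of it, so the peak cannot be given to *Klrb1f* alone. The fold enrichment was 14.2 in PROLIF replicate 1, 11.2 in replicate 2 and 10.1 in replicate 4, against 6.47, 6.06 and 6.56 in the DIFF replicates 1, 2 and 4. The groups did not overlap (11.8 ± 2.15 against 6.37 ± 0.264, SD, n = 3 each). Summit reads were 73, 49 and 39 in PROLIF and 29, 23 and 45 in DIFF, and these did overlap. The 45 reads were in DIFF replicate 4, which also had the highest background.

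As percentiles of their own lists, the *Klrb1f* peaks stood at 86.9, 81.0 and 78.3 in PROLIF and at 62.5, 49.4 and 67.6 in DIFF, again without overlap. Of the 40164 regions that all 6 libraries had, 4692 (11.7%) had every PROLIF percentile above every DIFF one, and 8469 (21.1%) the reverse. The difference of the means at *Klrb1f*, 22.3 percentile points, ranked 2021 of 40164 across the genome and 4 of 44 in the window. The 201 bases around its summit held 12 CpG dinucleotides and 65.7% G and C, against 2 CpG and 49.8% at *Klrb1a* and 0 CpG and 45.3% at *Klrb1c*. Over all 119719 regions on assembled chromosomes, the median was 2 CpG and 50.2%, and 13.7% of the regions held 10 or more CpG. The *Klrb1a* summit was thus close to both medians, that of *Klrb1c* was below both, and that of *Klrb1f* was above both.

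**Figure D2:**
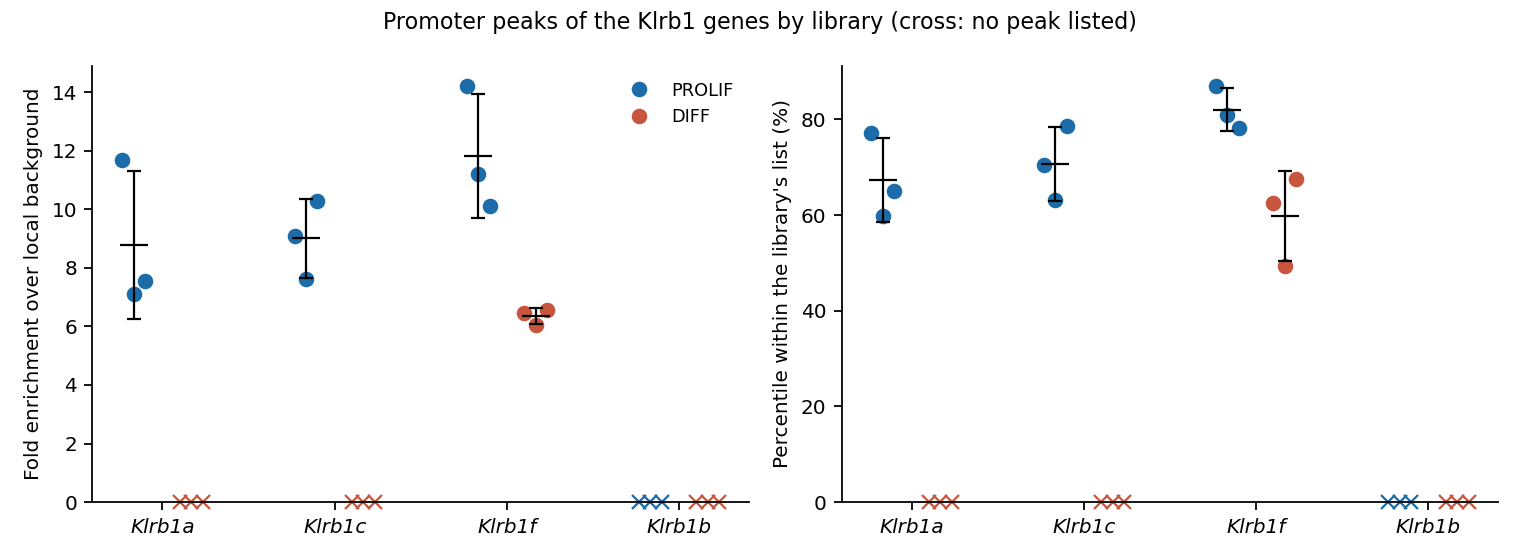
Fold enrichment (left) and percentile within the library's own list (right) of the promoter peak of each *Klrb1* gene, 1 point a library, with the mean ± SD of 3 libraries where all 3 had a peak. Crosses at 0 stand for libraries with no listed peak. The *Klrb1f* points of PROLIF lie above those of DIFF on both scales.

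*Klrb1b* (chr6:128813706-128826331, minus strand), the inhibitory member, had no promoter peak in any library, like 25.4% of protein-coding genes. Its nearest listed peak was 11065 to 11483 bp from a start site, in the broadest region of the window (chr6:128837396-128839761, 2366 bp). All 470 words of 32 bases within 250 bp of its first start site occurred once in the genome, so the sequence around that start can be told apart from its relatives. Around the first start sites of *Klrb1c* and *Klrb1a*, which lie upstream of their peak regions, 70.2% and 52.8% of such words did. *Klrb1*, the fifth protein-coding gene of the family, also had none, and its nearest listed peak was between 11215 and 13197 bp away. The pseudogene *Klrb1-ps1* had a region within 3 kb of a start site in PROLIF replicate 1 and DIFF replicate 4 only, at the 7.71 and 2.32 percentile.

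Both strands of the 100 bp on either side of each summit were searched for TGACTCA (AP-1), ACAAAG and ACAATG (SOX), CAGATG and CAGCTG (E-boxes), TTGGCA (a partial NFI site), ACATTCCA (TEAD), TGTGGTTT (RUNX) and CCGGAAGT (ETS). The summit windows of *Klrb1a* and *Klrb1c* printed above held none of the 9. That of *Klrb1f* held only CAGCTG, at chr6:129049229-129049234, 41 bp from the summit, letters found in 19.6% of all regions. For comparison, TGACTCA was found around 5.76% of all summits and 27.8% of those of the 2141 PROLIF-only regions on assembled chromosomes. The RefSeq promoters of *Klrb1a* and *Klrb1c* reach further upstream than these windows. ACAAAG occurred in both (chr6:128623121-128623126 and chr6:128788793-128788798), and 18.7% of the 32851 promoters in the table held it. The RefSeq promoter of *Klrb1f* (chr6:129045651-129045950) is apart from its peak, at the start sites that had no peak of their own. ACAATG occurred in it (chr6:129045945-129045950) and in 12.6% of promoters. A letter match is not a binding site, and no match says only that these letters were not in the window.

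Across the window, 44 of the 85 regions (51.8%) were listed in all 6 libraries, against 33.4% of regions in the genome. The regions had a median width of 365 bp (84 to 2366). PROLIF-only regions numbered 2 (2.35%, against 1.78% in the genome), and both were the promoters of *Klrb1a* and *Klrb1c*. DIFF-only regions numbered 3 (3.53%, against 3.47%). A further 17 regions (20.0%) were in 1 library and 19 had other patterns. By library, 69, 58 and 54 of the regions were occupied in PROLIF replicates 1, 2 and 4, and 56, 53 and 67 in the DIFF ones. Occupancy was highest in the libraries with the longest lists, PROLIF replicate 1 and DIFF replicate 4. Of the 44 shared regions 21 were intergenic, 12 intronic and the others exonic, and 32 of the 85 lay within 3 kb of any annotated start site.

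**Figure D3:**
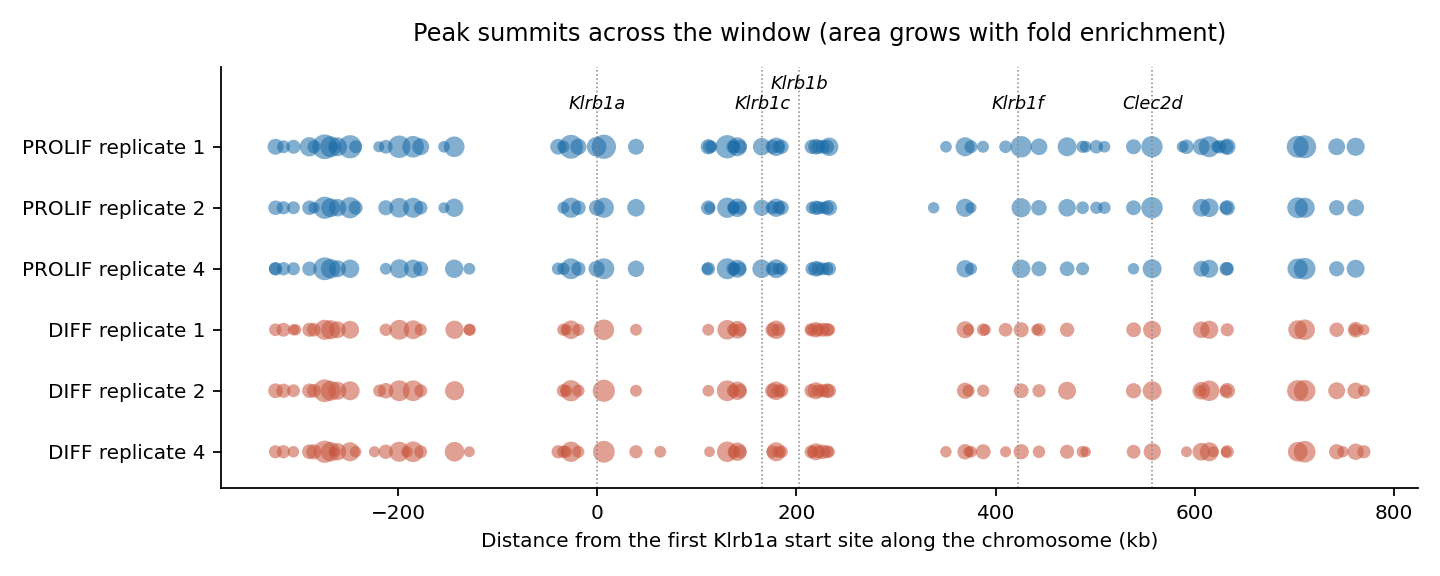
Summits of every listed peak of the window in the 6 libraries, as distance in kb from the first *Klrb1a* start site, with the area of a point growing with its fold enrichment. Dotted lines mark the first start site of each *Klrb1* member and the *Clec2d* peak. At the *Klrb1a* and *Klrb1c* lines there are points in the 3 PROLIF libraries and none in DIFF.

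Just outside the PROLIF-only pattern were 2 regions with all PROLIF libraries and 1 DIFF library, and 3 with 2 PROLIF libraries and no DIFF library. The first 2 were in an intron of *BC064078* (chr6:128998666-128998996), with folds of 4.38, 2.86 and 3.64 in PROLIF and 3.28 in DIFF replicate 4, and an intergenic one (chr6:129110837-129111030), with 3.78, 4.06 and 4.42 in PROLIF and 3.42 in DIFF replicate 4. The other 3 had folds between 2.79 and 4.78. The *Klrb1a* and *Klrb1c* peaks, at 7.11 or more, were well above all 5, but they had been picked for their pattern.

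The 3 DIFF-only regions were weaker than the PROLIF-only ones, and none was at a *Klrb1* gene. The PROLIF-only ones were the promoters by which the members had been chosen, so this is no comparison of the states. An intergenic region near *A2ml1* (chr6:128592327-128592543, 217 bp) had folds of 2.98, 3.55 and 3.18 in DIFF replicates 1, 2 and 4. One in an intron of *BC064078* (chr6:128996306-128996559, 254 bp) had 3.27, 3.68 and 2.52. One 3716 bp from a start site of *Clec1b*, which encodes a platelet receptor (chr6:129393266-129393581, 316 bp), had 2.81, 3.54 and 4.56. Their percentiles ran from 2.96 to 50.7, so some stood close to the bottom of their lists, whereas the lowest at *Klrb1a* or *Klrb1c* was 59.9.

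The window was compared between states on measures that left out the *Klrb1a* and *Klrb1c* promoter regions. Per 10000 listed peaks, the window held 8.22, 8.55 and 9.0 in PROLIF and 8.13, 7.63 and 7.72 in DIFF. All 3 PROLIF libraries were above all DIFF ones (8.59 ± 0.392 against 7.83 ± 0.266, SD, n = 3 each), and the two-sided exact permutation p was 0.1, the smallest that 3 against 3 can give. The median width of the shared regions was 584, 520 and 508 bp in PROLIF and 476, 560 and 583 bp in DIFF (537 ± 40.8 against 540 ± 56.3). The states overlapped fully, and the difference of 2.33 bp was within the spread between libraries (exact permutation p = 1.00). Such p-values measure the spread between these samples only.

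Of the 44 shared regions, 11 (25.0%) had every PROLIF percentile above every DIFF one and 4 (9.09%) the reverse, in the opposite order to the genome-wide 11.7% and 21.1%. The 11 included *Klrb1f* and the start sites of *Clec2d* and *Clec2h*. The others were near start sites of other genes, such as *BC064078* and *4922502D21Rik*, or within 3 kb of none. The region with the widest gap was that of *Clec2h*, a C-type lectin gene beside *Klrb1a*. Its fold was 7.30, 9.14 and 7.80 in PROLIF replicates 1, 2 and 4 and 3.45, 3.54 and 4.56 in DIFF ones, and its percentiles averaged 65.6 ± 6.05 against 27.1 ± 20.7 (SD, n = 3 each). At *Clec2d*, the ligand gene of *Klrb1b*, the fold was 14.0, 14.2 and 10.9 in PROLIF and 9.64, 10.9 and 8.72 in DIFF, and the percentiles averaged 91.4 ± 3.23 against 81.8 ± 0.286. *Clec2d* was thus high in its lists in both states, and its folds met at 10.9.

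**Figure D4:**
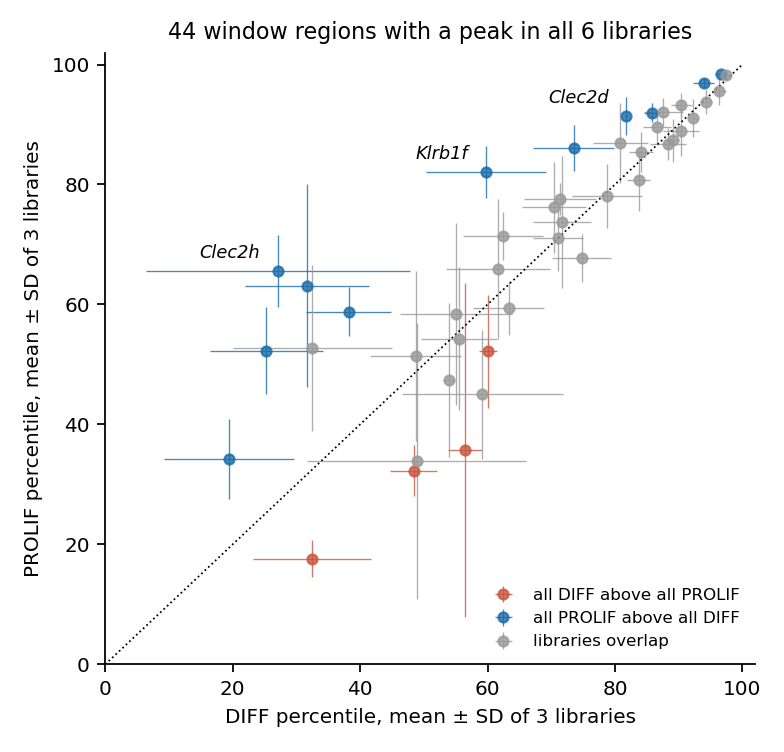
Mean percentile in PROLIF (vertical) against DIFF (horizontal) for the 44 regions of the window listed in all 6 libraries, with bars of 1 SD over 3 libraries and a dotted line of equality. Blue points (11) have every PROLIF library above every DIFF library, red points (4) the reverse, and grey points overlap. *Klrb1f*, *Clec2d* and *Clec2h* lie above the line.

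The *Clec2* genes were otherwise mixed. Of the 7 in the annotation, *Clec2d*, *Clec2h* and the pseudogene *Clec2j*, which shares its region with *Clec2h*, had a promoter peak in all 6 libraries, *Clec2e* and *Clec2i* in none, and *Clec2f* and *Clec2g* in some. Of 28 protein-coding genes with a start site in the window, 13 (46.4%) had a promoter peak in all 6 libraries and 8 (28.6%) in none, against 64.4% and 25.4% of all protein-coding genes. The first group included genes at the centromeric end that are not receptors, such as *Tulp3* (91.9 to 96.1 percentile), the cell cycle factor gene *Foxm1* (81.7 to 88.3) and the chaperone gene *Fkbp4* (93.1 to 97.7). The second held *Klrb1*, *Klrb1b*, *Clec2e*, *Clec2i*, *Cd69* and *Clec12a*, besides *BC035044* and *Gm44511*. Of 30 other C-type lectin genes of the complex, 23 had no promoter peak, among them *Klrk1*, *Klrd1* and every *Klra* gene listed. *Clec12b* and *Klre1* had one in all 6 and none was PROLIF-only.

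Of 9 genes of the signalling chain below these receptors, the promoters of *Hcst* (an adaptor), *Syk*, *Ptpn6* (the phosphatase that inhibitory receptors recruit), *Vav1* and *Plcg2* were listed in all 6 libraries. The adaptor genes *Fcer1g* and *Tyrobp* and the kinase gene *Zap70* were listed in none. These counts, 5 and 3 of 9, stood near the 64.4% and 25.4% of all protein-coding genes. *Ptpn6* stood between the 85.5 and 96.4 percentile, and *Syk* between 7.66 and 53.9. *Lck* was listed in PROLIF replicates 1 and 4 and in the 3 DIFF libraries.

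Markers of other cells were checked in the same way, since the *Klrb1* receptors are known from NK cells. Over all protein-coding genes, 25.4% had no promoter peak, 64.4% had one in all 6 libraries and 0.228% were PROLIF-only. Of 13 NK and lymphocyte markers, 11 had no promoter peak in any library, including *Ncr1*, *Ptprc*, *Prf1*, *Gzmb* and *Nkg7*. *Eomes*, also a gene of neural progenitors, was listed in all 6, and *Tbx21* in DIFF replicate 4 only (10.7 percentile). Of 10 microglial and myeloid markers 7 had none, *Csf1r* and *P2ry12* were listed in all 6 and *Aif1* in 5. Of 6 endothelial markers 3 had none, *Kdr* and *Flt1* were in all 6, and *Pecam1* was PROLIF-only (51.7, 44.1 and 55.1 percentile), the pattern of *Klrb1a* and *Klrb1c*. All 10 neural stem and progenitor markers, *Nes* and *Sox2* among them, were listed in all 6. The part of other cell types in the *Klrb1* peaks was not tested.

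Copied sequence recurred elsewhere in the window. On the centromeric side of *Klrb1c* and on its far side lay 3 pairs of shared regions. The pair that starts at 128760060 and 128798831 was 92.2% identical over 1097 bases, that at 128763783 and 128802705 was 87.2% identical over 686, and that at 128766892 and 128805219 was 94.8% identical over 325. Their starts were 38771, 38922 and 38327 bp apart. Local backgrounds at these 6 regions were 10.4 to 28.6 reads, against 2.85 to 6.01 for whole libraries, and their mean folds in either state were 10.5 or less with 36 to 304 reads at the summit. High backgrounds were not particular to these pairs. The nearby regions that start at 128842682 and 128845365 had 13.4 to 24.5 and 9.79 to 18.0 reads, with 94.1% and 100% of words occurring once. The region at 128842682 was itself partly copied. It was 85.7% identical over 490 bases to the region that starts at 128837396. To the region at 128763783, of the pairs above, it was 96.2% identical over 104 bases. A pair further out, at 128629929 and 128753790, was 97.2% identical over 712 bases, with 53.7% and 53.4% of words occurring once. Its backgrounds were 3.19 to 6.07 and 3.62 to 6.83 reads. A link between copied sequence and background was not tested. The *Clec2d* region and that at a start site of *BC064078* were 86.0% identical over 664 bases. Of the 85 regions, 47 were made only of words that occur once, and 3 had under 50% of such words. The *Klrb1a* and *Klrb1c* promoter peaks, also a copied pair, had backgrounds of 2.85 to 3.51 reads, near the level of their libraries.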

How the data were processed

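Narrow peak lists of 6 ATAC-seq libraries were used. The authors clipped reads with Cutadapt, dropped those under 20 bases with Trimmomatic, mapped them to GRCm38 (Bowtie2), labelled duplicate pairs (Picard) and ran MACS2 on each library at a false discovery rate of 0.05. Versions, read extension and any transposase shift are not given in the sources used here, and each can move peak edges. Each deposited list holds a score, the fold enrichment (a ratio to local background, by the authors), and −log10 p and −log10 q as deposited. The score was not used. Peak lists hold no read totals, so depth is shown by the number of peaks (60006 to 88039) and the background reads per library.

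Peaks of all lists sharing 1 bp or more were merged. Summit reads and background were solved from fold and −log10 p under the MACS2 formulas, and at least 99.9867% of solved peaks came out whole to within 0.02 in −log10 p. Percentiles are ranks of −log10 p within a list. Groups were compared with a two-sided exact permutation test. Named were the 4 members, every gene of fixed lists (receptors, ligands, signalling partners, cell markers), window genes with a promoter peak, and the 3 nearest patterns. Members and lists were chosen with earlier results of these data known. *Clec2m* was not found in the annotation by that name and was not used. Similar regions were found with blastn 2.17.0, promoters aligned with Biopython 1.88, sequences read with samtools 1.23.1 and pysam 0.24.0, and tests run in scipy 1.17.1 (Python 3.11.15). The solving of reads, the merging and the PROLIF-only and DIFF-only calls were tested on simulated data, and the other steps were not. Alternatives tried were stricter q values (0.01, 0.001), lists of equal length, the strongest 20000 peaks, a promoter of 1 kb, a 50% cover rule, leaving out each library and a replicate block.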

Additional observations from a re-analysis of the deposited data

How the results depend on the processing

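Of 148 values recomputed under alternative settings, 117 stayed within the limits set. These were a count within 1.5 times, or a tested difference with its direction and its side of the threshold, whatever its size. Some of the 117 could not have moved. Tested differences could change in direction only, since the smallest exact permutation p of 3 against 3 libraries is 0.1. With the strongest 20000 peaks of each list, the window kept 32 regions, 17 in all libraries, 1 PROLIF-only and 0 DIFF-only, the genome 1305 DIFF-only and 1610 PROLIF-only regions, so that PROLIF-only regions were no longer the fewer, and 110 genes had a PROLIF-only promoter. The share of PROLIF libraries with a promoter peak minus that of DIFF libraries then fell from 100 to 33.3 percentage points at *Klrb1a* and at *Klrb1c*, and rose from 0 to 100 at *Klrb1f*. No other setting moved these 3. Leaving out 1 library could not move the share at any member, since all libraries of a state had the same call there. The difference in window peaks per 10000 was −3.00 under this setting (exact permutation p = 0.1) and −1.05 to −0.50 under all others. Leaving out 1 library gave −0.945 to −0.555. Lists of equal length gave 87 such genes. When peaks had to cover 50% of a region, 28 window regions were in all libraries and 1 was DIFF-only. The difference in width was −0.667 bp at q below 0.001, 21.7 bp with lists of equal length and −20.0 to 30.1 bp when 1 library was left out. Leaving out 1 library gave 2 to 5 PROLIF-only and 3 to 4 DIFF-only window regions (5 without PROLIF replicate 4, 4 without DIFF replicate 4), 2484 to 4209 (4209 without PROLIF replicate 4, 3305 without PROLIF replicate 2, 3250 without DIFF replicate 4) and 4478 to 7097 (7097 without PROLIF replicate 1, 6941 without DIFF replicate 1) in the genome, and 56 to 94 genes with a PROLIF-only promoter (94 without DIFF replicate 4, 93 without PROLIF replicate 4, 88 without PROLIF replicate 2). With a replicate block (a difference in at least 2 of 3 pairs), 7 window regions, 7562 genome regions and 203 genes were PROLIF-only and 13365 DIFF-only. To look for pairs, PROLIF libraries were correlated with DIFF libraries over the 40164 regions listed in all 6. The values correlated were deviations from the mean of the library's own state. They do not measure how alike the peak strengths of the libraries were. Same-numbered libraries correlated at 0.0610, 0.157 and 0.0152, and differently numbered ones at −0.115 to 0.0576. Since the same-numbered values were not all over 0.1, those libraries were not taken as pairs. A missing peak is a signal under its list's threshold, which limits every absence given here.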
